A study of Mus musculus with 6 samples.

Results

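The Fos and Jun genes described here are Fos, Fosb, Fosl2, Jun, Junb and Jund, chosen by gene symbol. All 6 were among the 32067 features of the deposited table, and all 6 passed the filter on low counts that left 18629 genes for testing. Hippocampal poly(A) RNA was sequenced from wild type female C57BL/6J mice aged 17 weeks. Every mouse had been bilaterally ovariectomised, which removes the main source of circulating estrogen. In the OVX group (3 libraries) the mice ate a control diet, and in the OVX+RJ group (3 libraries) they ate, from 8 weeks of age, food with 1% royal jelly added, which worker honeybees secrete to feed larvae. The labels name each library a biological replicate, and they do not state when in the day, or in which order, the mice were sampled.

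Fos and Jun proteins are the core subunits of AP-1, a dimeric transcription factor with a basic DNA-binding region and a leucine zipper. Fos proteins cannot form stable dimers among themselves and pair with a Jun protein, while Jun proteins also pair with each other. In hippocampal neurons Fos, Fosb and Junb are immediate early genes, transcribed within minutes of synaptic activity through calcium, cAMP and ERK signalling onto CREB and SRF at their promoters. Jund is transcribed more steadily, and Fosl2 encodes the Fos-related protein Fra-2.

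The promoters of 3 members are shown because Fos and Junb were the members whose groups did not overlap, while Jun is the partner gene whose levels overlapped. Each is the 250 bases before the RefSeq start on build GRCm38.p6, 5′ to 3′ on the gene's strand. Capitals mark the CRE half-site TGACG, the Jun site TGACATCA, the MEF2 box, the TATA box TATAAA and the CCAAT box CCAAT, wherever a match was found on either strand.
Fos, chr12:85473640-85473889, plus strand: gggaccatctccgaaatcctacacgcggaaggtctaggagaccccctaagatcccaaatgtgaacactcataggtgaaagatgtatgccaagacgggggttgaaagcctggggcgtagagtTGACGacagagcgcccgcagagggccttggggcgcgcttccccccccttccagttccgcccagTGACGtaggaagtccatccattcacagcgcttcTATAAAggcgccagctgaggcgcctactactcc
Junb, chr8:84978749-84978998, minus strand: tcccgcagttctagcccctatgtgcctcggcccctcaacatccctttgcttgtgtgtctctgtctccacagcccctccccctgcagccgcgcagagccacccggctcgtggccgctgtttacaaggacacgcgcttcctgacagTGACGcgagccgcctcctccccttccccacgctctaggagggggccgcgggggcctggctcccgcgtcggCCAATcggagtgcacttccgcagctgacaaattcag
Jun, chr4:95052223-95052472, minus strand: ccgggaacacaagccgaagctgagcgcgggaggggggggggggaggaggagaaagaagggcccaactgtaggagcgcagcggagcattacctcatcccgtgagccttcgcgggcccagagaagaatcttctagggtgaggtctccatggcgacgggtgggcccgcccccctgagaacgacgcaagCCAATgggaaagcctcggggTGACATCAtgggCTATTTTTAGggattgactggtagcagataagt

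Fos had CRE half-sites at 129 and 66 bases before its start, Junb had 1 at 106 bases and Fosb had 1 at 60 bases. TGACG was thus in the windows of 3 of the 6 genes, Fos, Fosb and Junb, and in 17.8% of all 32851 RefSeq windows of this length. The GC content was 58.4% in the Fos window, 68.8% in Fosb and 66.4% in Junb. It was 61.2% in Jun, 64.4% in Fosl2 and 47.6% in Jund, with a median of 52.4% over all windows. The share over all windows was not matched for GC content. Any link of TGACG to the levels in the groups was not tested. The Jun window had no TGACG. It held the Jun site TGACATCA, a variant to which Jun-containing dimers are known to bind, at 45 bases before the start, and a MEF2 box at 33 bases. These were found in 2.93% and 2.92% of all windows. The CCAAT box was in the windows of Jun and Junb and in 33.8% of all, and the TATA box TATAAA was in that of Fos and in 12.4% of all. The full CRE TGACGTCA, which contains the half-site, the AP-1 site TGANTCA and the CArG box bound by SRF were found in none of the 6 windows, and in 1.55%, 6.75% and 1.47% of all. The search did not reach further upstream than 250 bases, so any such site there would not be seen. The GC box GGGCGG, not in capitals above, was in the windows of Fos, Fosb, Fosl2 and Jun and in 32.7% of all. The windows of Fosb and Fosl2 are not printed, as another annotated transcript starts within or upstream of them. For Jund, the RefSeq window lies upstream of the start in GENCODE M21 and held none of the motifs searched.

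**Figure D1:**
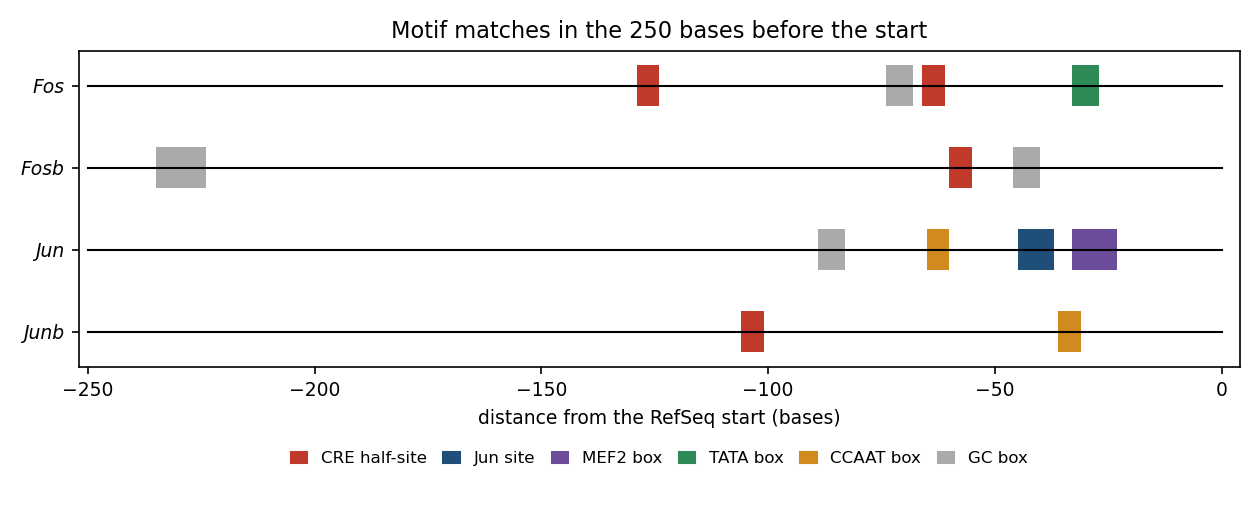
Positions of motif matches, in bases before the RefSeq start (x axis), in the promoter windows of Fos, Fosb, Jun and Junb (rows), with coloured boxes drawn to scale for each motif on either strand. CRE half-sites sit at 129 and 66 bases in Fos, 60 bases in Fosb and 106 bases in Junb, and the Jun site and MEF2 box sit at 45 and 33 bases in Jun.

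The members were chosen with the contrast of OVX+RJ with OVX already known, so their differences are a description and no test of them is given. Levels are in CPM, which scales the counts of a library to the total over all its rows. Log2 fold changes of OVX+RJ over OVX come from edgeR, with limma's moderated standard error (SE) on log2 CPM. The median log2 fold change of the 6 genes was 0.25, with 5 of 6 positive, against a median of -0.0015 over all genes tested, of which 49.6% were positive. The groups did not overlap, with OVX+RJ higher, at 2 members, Fos and Junb, and at 4.90% of all genes tested, or 10.1% counting either direction. No member separated in the other direction, against 5.17% of all genes. With edgeR (quasi-likelihood, p values adjusted by Benjamini-Hochberg) 0 of the 18629 genes passed an adjusted p of 0.05 in either direction (0% higher and 0% lower), with 754, or 4.05%, at an unadjusted p under 0.05. DESeq2 called 12 of 23354 genes (0.0514%).

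The libraries held between 34718596.5 and 58163785 counts. Mitochondrial genes took 6.46% to 6.91%. All 8 hippocampal neuron markers were present in every library, from 50.5 CPM at the lowest (Grik4) to 395 CPM at the highest (Zbtb20), and their summed level was 1183 to 1369 CPM in OVX and 1189 to 1329 CPM in OVX+RJ. OVX+RJ 1 stood apart, with a mean correlation with the other libraries of 0.983 against 0.986 to 0.987 for the rest, across genes on the log2 CPM scale. Values without it are therefore given as well. In bulk tissue, fewer cells of a type and less RNA per cell cannot be told apart.

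Fos, the prototype immediate early gene, was at 5.90, 6.52 and 6.80 CPM in OVX 1, 2 and 3 and at 22.1, 12.1 and 13.8 CPM in OVX+RJ 1, 2 and 3. Every OVX+RJ library was above every OVX library, and OVX+RJ 1 was the highest of all. The underlying counts ran from 205 to 851. The OVX libraries varied by 7.13% of their mean, where counting error alone gives 6.98% at the lowest count, and the OVX+RJ libraries varied by 33.5%. The group means were 6.41 ± 0.457 CPM in OVX and 16.0 ± 5.36 CPM in OVX+RJ (SD, n = 3 each), giving a ratio of 2.50 and a log2 fold change of 1.33 (SE 0.20). Of all genes tested, 0.242% had a larger log2 fold change than Fos, 1.82% than Junb and 6.29% than Fosb. The shares were 19.5% for Fosl2, 30.8% for Jund and 58.9% for Jun. As the members were chosen with this contrast known, these ranks are a description and no test. Without OVX+RJ 1 the ratio of Fos was 2.02 and its log2 fold change was 1.01. As OVX+RJ 1 was the highest library, leaving it out could not make the groups overlap.

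Junb encodes a Jun protein with weaker transactivation than Jun on many promoters. It was at 36.4, 34.8 and 36.7 CPM in OVX 1, 2 and 3 and at 65.8, 51.6 and 61.6 CPM in OVX+RJ 1, 2 and 3. The 3 OVX libraries lay close together, the OVX+RJ libraries were all higher, and OVX+RJ 1, 3 and 2 stood in the same order as for Fos. The OVX libraries varied by 2.80% of their mean, against 2.81% from counting error at the lowest count of 1264, and the OVX+RJ libraries by 12.3%. The means in OVX+RJ and OVX were 59.7 ± 7.31 and 36.0 ± 1.01 CPM (SD, n = 3 each), giving a ratio of 1.66 and a log2 fold change of 0.74 (SE 0.097). The lowest OVX+RJ library, OVX+RJ 2, was 14.9 CPM above the highest OVX library, a gap that leaving out OVX+RJ 1 cannot change. Without OVX+RJ 1 the log2 fold change was 0.65.

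Fosb encodes FosB and, by alternative splicing, the truncated and long-lived ΔFosB. The table gives 1 value per gene, so the forms cannot be told apart. Fosb was at 8.18, 6.93 and 9.74 CPM in OVX 1, 2 and 3 and at 13.3, 7.34 and 11.1 CPM in OVX+RJ 1, 2 and 3. OVX+RJ 1 and 3 were above all OVX libraries, but OVX+RJ 2 was below OVX 1 and OVX 3, so the groups overlapped. The OVX+RJ and OVX means of Fosb were 10.6 ± 3.02 and 8.28 ± 1.41 CPM (SD, n = 3 each), giving a log2 fold change of 0.37 (SE 0.21). It was 0.15 without OVX+RJ 1 and 0.58 without OVX+RJ 2. With OVX+RJ 2 left out Fosb too was apart from OVX, so that 3 members were, beside 10.4% of all genes tested under that choice, and beside 2 members and 10.6% without OVX+RJ 1.

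Fosl2 was at 53.0, 37.8 and 43.6 CPM in OVX 1, 2 and 3 and at 37.2, 48.8 and 59.8 CPM in OVX+RJ 1, 2 and 3. The lowest and the highest of the 6 libraries were both OVX+RJ libraries. OVX+RJ 1, the highest library for Fos, Fosb, Junb and Jund, was the lowest for Fosl2. The OVX+RJ and OVX means of Fosl2 were 48.6 ± 11.3 and 44.8 ± 7.64 CPM (SD, n = 3 each), giving a log2 fold change of 0.13 (SE 0.15), which was 0.28 without OVX+RJ 1 and -0.041 without OVX+RJ 3.

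Jun, the founding member of its family and a substrate of JNK, was at 112, 95.4 and 101 CPM in OVX 1, 2 and 3 and at 98.3, 115 and 85.6 CPM in OVX+RJ 1, 2 and 3. Here OVX+RJ 2 was the highest library and OVX+RJ 3 the lowest, so the OVX+RJ values enclosed all OVX values. The OVX+RJ and OVX means of Jun were 99.6 ± 14.7 and 103 ± 8.31 CPM (SD, n = 3 each), giving a log2 fold change of -0.033 (SE 0.0999), which ran from -0.14 without OVX+RJ 2 to 0.070 without OVX+RJ 3. The antisense RNA gene Junos overlaps Jun in GENCODE M21, and whether the counting used strand is not stated in the labels. Junos had 23 to 46 counts a library, beside 3090 to 5551 for Jun. The 3 libraries with the most Jun, OVX+RJ 2, OVX 1 and OVX 3, were also the 3 with the highest summed level of 10 dentate granule cell markers, at 764, 739 and 802 CPM. The other 3 were at 504 to 606 CPM. This parallel was noticed after the values were seen, and the part of dentate tissue in the Jun values was not tested.

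Jund was at 77.3, 79.5 and 72.4 CPM in OVX 1, 2 and 3 and at 90.5, 69.9 and 77.4 CPM in OVX+RJ 1, 2 and 3. OVX+RJ 1 was the highest and OVX+RJ 2 the lowest, and the other 4 libraries lay between them. The OVX+RJ and OVX means of Jund were 79.3 ± 10.4 and 76.4 ± 3.60 CPM (SD, n = 3 each), giving a log2 fold change of 0.066 (SE 0.097), which was -0.053 without OVX+RJ 1. Over all 6 libraries the highest level of Jund was 1.30 times the lowest and that of Jun 1.34 times, against 3.74 times for Fos, 1.92 for Fosb, 1.89 for Junb and 1.61 for Fosl2.

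**Figure D2:**
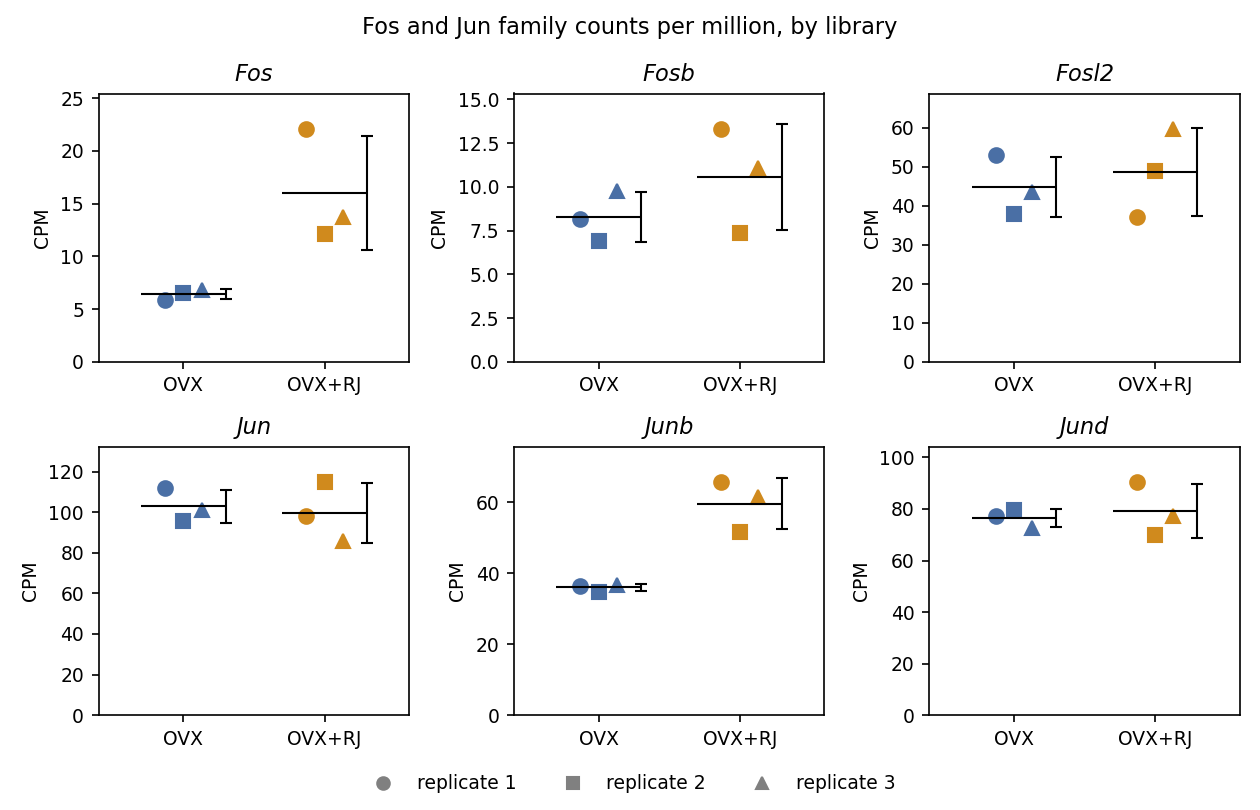
CPM (y axis, from 0) of each of the 6 genes in the 3 OVX and 3 OVX+RJ libraries; symbols give the replicate, the horizontal line the group mean and the bar its SD. Fos at 12.1 to 22.1 CPM and Junb at 51.6 to 65.8 CPM in OVX+RJ lie above all OVX libraries, and the other 4 genes overlap between groups.

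Within the OVX+RJ group, OVX+RJ 2 had the lowest Fos, Fosb, Junb and Jund and the highest Jun, while OVX+RJ 1 had the highest of those 4 and the lowest Fosl2. On the log2 CPM scale, relative to the OVX mean, OVX+RJ 1, 2 and 3 stood at 1.82, 0.91 and 1.10 for Fos and at 0.91, 0.52 and 0.77 for Junb. For Fosb they stood at 0.73, -0.16 and 0.43. Leaving out OVX+RJ 1 gave the smallest log2 fold change of Fos, Fosb, Junb and Jund over the 6 libraries left out in turn, and the largest of Fosl2.

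**Figure D3:**
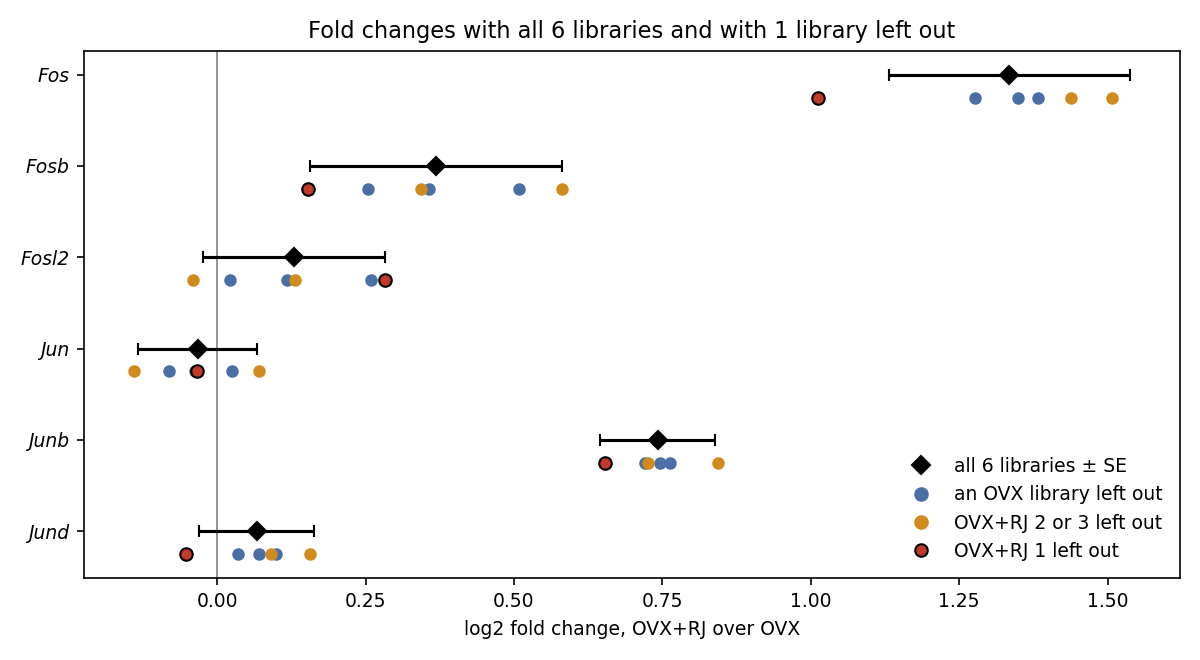
Log2 fold change of OVX+RJ over OVX (x axis) for each gene with all 6 libraries (black diamond, bar = SE) and with each library left out in turn (circles below it). Fos stays between 1.01 and 1.51 and Junb between 0.65 and 0.84, while Fosl2, Jun and Jund have circles on both sides of 0.

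Levels of different genes were compared per kb of exon, as CPM per kb over the merged exons of GENCODE M21 coding transcripts. In OVX the order was Jund at 45.8 ± 2.16, Jun at 32.2 ± 2.60, Junb at 19.9 ± 0.558, Fosl2 at 6.85 ± 1.17, Fos at 3.04 ± 0.217 and Fosb at 2.19 ± 0.373 CPM per kb (SD, n = 3), and no neighbours in this order had overlapping libraries. In OVX+RJ it was Jund at 47.5 ± 6.26, Junb at 33.0 ± 4.04, Jun at 31.2 ± 4.62, Fos at 7.59 ± 2.54, Fosl2 at 7.43 ± 1.73 and Fosb at 2.80 ± 0.799 CPM per kb. There Junb and Jun overlapped, as did Fos and Fosl2, so neither pair can be ordered. The place of Jund rests on its length, and its longer RefSeq span was an alternative added after the data were seen. Over that span the mean of Jund in OVX was 26.6 CPM per kb. There its libraries (25.2 to 27.6) lay below those of Jun (29.9 to 35.1) and above those of Junb (18.9 to 20.0). In OVX+RJ the mean of Jund was 27.6 CPM per kb. Its libraries (24.3 to 31.5) there overlapped those of Jun (26.9 to 36.1) and of Junb (28.0 to 35.8, mean 32.4).

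The 6 genes together were at 108 to 115 CPM per kb in OVX and 122 to 141 in OVX+RJ. Jun genes made up 89.0% ± 0.877 of this in OVX and 86.3% ± 1.17 in OVX+RJ (SD, n = 3 each), and Fos genes the rest. In the same order, Fos alone was 2.77% ± 0.287 and 5.78% ± 1.45 of the total, and Junb was 18.1% ± 0.643 and 25.4% ± 1.83. These sums and shares rest on the GENCODE length of Jund, their largest part, and were not computed over its longer RefSeq span. Junb per unit of Jun, both per kb, was 0.574, 0.643 and 0.639 in the OVX libraries, while OVX+RJ 1, 2 and 3 had 1.18, 0.790 and 1.27. For each unit of Fosl2 there were 0.346, 0.534 and 0.484 of Fos in the OVX libraries and 1.85, 0.769 and 0.714 in the OVX+RJ libraries. Neither ratio overlapped between the groups. Both contain Fos or Junb, whose own groups do not overlap, so they add no separate evidence.

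**Figure D4:**
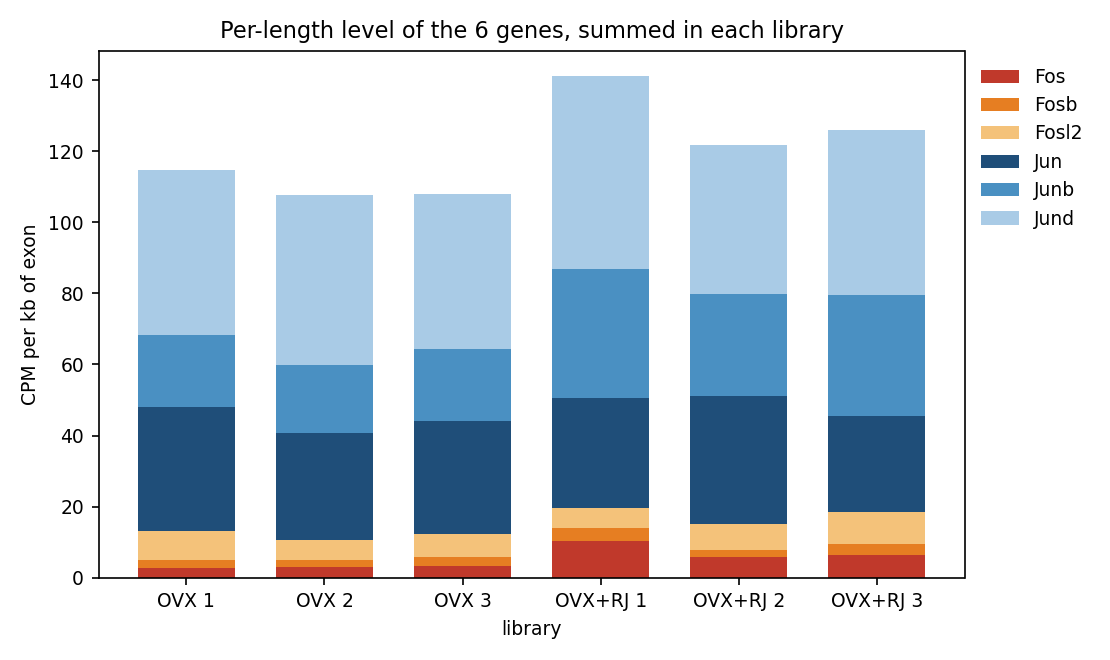
Stacked bars from 0 of the CPM per kb of exon (y axis) of the 6 genes in each library (x axis), Fos genes in warm colours and Jun genes in blue. The sums are 108 to 115 in OVX and 122 to 141 in OVX+RJ, and the bands of Fos and Junb are wider in each OVX+RJ library.

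Around these 6 genes, 96 further genes of the AP-1 pathway were listed by role, and 90 were tested. In edgeR's test 0 of the 90 were called higher and 0 lower, with 2 higher and 3 lower at an unadjusted p under 0.05, beside 4.05% of all genes. DESeq2 also called 0 of them. The groups did not overlap at 5 higher and 6 lower, beside 4.90% and 5.17% of all genes tested. The 5 were Atf2, Nfil3, Ep300, Sp1 and Zfp36l1, and the 6 were Mrtfa, Rps6ka2, Map2k7, Khsrp, Cdk5 and Vim. All but Atf2 are named after their values were seen. The median log2 fold change of the 90 was 0.037.

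Of the other AP-1 bZIP genes, which encode dimer partners or relatives, 15 of 18 were tested, with 10 positive and a median log2 fold change of 0.089. The most abundant were Atf2, a Jun partner, at 132 ± 4.61 CPM with royal jelly and 122 ± 2.47 CPM without, Atf4 at 80.7 ± 6.64 and 76.4 ± 5.89, Mafg at 69.9 ± 7.24 and 72.9 ± 1.57, and Atf7 at 37.7 ± 3.60 and 39.4 ± 3.57 CPM (SD, n = 3 each). The groups of Atf2 did not overlap. Nor did those of Nfil3, a bZIP repressor gene and the 1 gene of this list at an unadjusted p under 0.05, which was at 6.28, 6.34 and 5.77 CPM in OVX 1, 2 and 3 and at 8.05, 7.93 and 7.79 CPM in OVX+RJ 1, 2 and 3, with a log2 fold change of 0.38 (SE 0.13). Maff, at a log2 fold change of 0.92, and Batf3, at -0.64, had the outermost values, both from levels under 3 CPM. Maff was at 2.65 CPM in OVX+RJ 1 and at 0.634 to 1.08 CPM in the other 5 libraries. Nfil3, Maff and Batf3 are named after their values were seen. Fosl1, the one Fos gene outside the 6, had 0 to 5 counts a library and was not tested.

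The transcription factors and cofactors acting on Fos and Jun promoters were all 20 tested, 12 positive and 8 negative, with a median log2 fold change of 0.045. Mef2a was at 255 ± 14.1 CPM with royal jelly and 243 ± 8.85 CPM without, Mrtfb at 223 ± 11.6 and 250 ± 16.7, Crtc1, a CREB coactivator, at 231 ± 6.32 and 243 ± 6.06, and Mef2d at 221 ± 15.5 and 212 ± 7.75 CPM (SD, n = 3 each). Mrtfa and Mrtfb, which encode SRF coactivators, were the 2 genes of this list at an unadjusted p under 0.05, with log2 fold changes of -0.29 (SE 0.071) and -0.15 (SE 0.063). Srf itself, at 38.3 ± 2.44 and 37.5 ± 1.49 CPM, and Creb1, at 67.7 ± 10.9 and 69.1 ± 9.64 CPM, overlapped between groups. Mrtfa, Srf and Creb1 are named after their values were seen.

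All 23 kinases of the ERK, JNK, RSK, PKA and CaMK arms were tested, 12 positive and 11 negative, with a median of 0.021. Camk2a was at 4282 ± 236 CPM with royal jelly and 4500 ± 79.7 CPM without, Camk2b at 1187 ± 104 and 1213 ± 43.0, and Mapk10, which encodes the neuronal JNK3, at 435 ± 11.8 and 422 ± 19.1 CPM (SD, n = 3 each). Rps6ka3, which encodes RSK2, was at 17.8, 18.1 and 43.5 CPM in OVX 1, 2 and 3 and at 35.0, 43.0 and 47.7 CPM in OVX+RJ. Its level in OVX 3 lay among the OVX+RJ values, and edgeR called it higher only when OVX 3 was left out, of the 6 libraries left out in turn. The other kinase gene at an unadjusted p under 0.05 was Rps6ka2, which encodes another RSK kinase. It was at 56.9, 48.8 and 47.6 CPM in OVX 1, 2 and 3 and at 42.9, 44.6 and 39.3 CPM in OVX+RJ 1, 2 and 3, lower in every OVX+RJ library than in any OVX library, with a log2 fold change of -0.26 (SE 0.088). Both are named after their values were seen.

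Of the 13 regulators of Fos and Jun protein or mRNA turnover, 7 were positive and 6 negative, with a median of 0.040. Fbxw7, which encodes part of a ubiquitin ligase that targets Jun, was at 172 ± 4.47 CPM with royal jelly and 177 ± 7.08 CPM without. Elavl1, which encodes the mRNA-stabilising protein HuR, was at 86.0 ± 4.55 and 81.3 ± 4.71 CPM (SD, n = 3 each). None of the 13 had an unadjusted p under 0.05.

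Of 22 genes described elsewhere as AP-1 targets 19 were tested, 9 positive and 10 negative, with a median of -0.051 and none at an unadjusted p under 0.05. Gria2, an AMPA receptor subunit gene linked to ΔFosB, was at 1283 ± 55.9 CPM with royal jelly and 1229 ± 87.7 CPM without. Scg2, which encodes a neuropeptide precursor, was at 225 ± 7.46 and 220 ± 10.6 CPM, Cck at 180 ± 5.11 and 194 ± 12.9 CPM, and Vgf at 175 ± 16.7 and 165 ± 11.3 CPM (SD, n = 3 each).

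**Figure D5:**
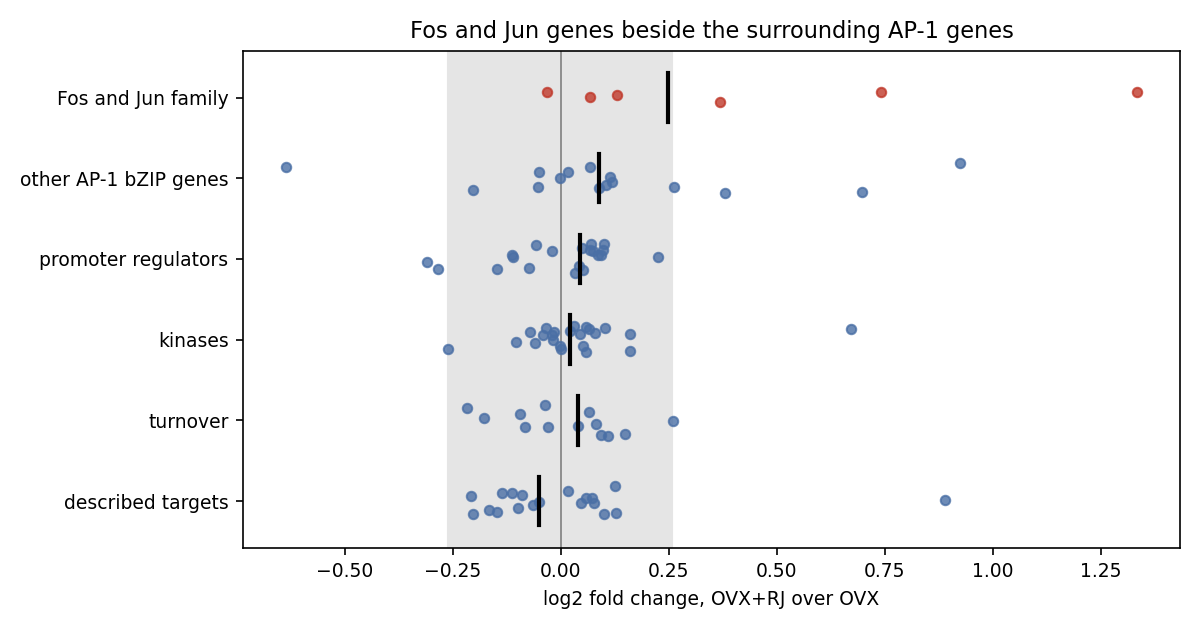
Log2 fold changes of OVX+RJ over OVX (x axis) for the 6 Fos and Jun genes (red) and the 5 lists of surrounding AP-1 genes (blue), 1 point per gene tested, with black bars at the list medians and points spread vertically for view. The grey band spans the 10th to 90th percentile of all genes tested, -0.26 to 0.26; Fos, Junb and Fosb lie to its right.

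Among 14409 other protein-coding genes tested, those whose log2 CPM over the 6 libraries was most like that of Fos by Pearson's r were Ptp4a1 (r = 0.996), Bmt2 (0.995), Ssx2ip (0.993), Chd1 (0.990) and Tfb2m (0.982). For Junb they were Klhl22 (r = 0.994), Ttc3 (0.993), Egr2 (0.992), Snx17 (0.988) and Cul3 (0.987). Fos and Junb are apart between the groups, so any gene that is apart the same way scores high over 6 libraries. The measure ignores size: Ptp4a1 was at 40.3 ± 1.20 CPM with royal jelly and 35.8 ± 0.464 CPM without and Klhl22 at 81.5 ± 1.41 and 76.0 ± 1.07 CPM, while Egr2, an immediate early transcription factor gene, was at 5.45 ± 1.57 and 1.55 ± 0.263 CPM (SD, n = 3 each).

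Some marker lists moved with the groups. The summed level of 6 endothelial markers was 205 to 218 CPM in OVX and 169 to 189 CPM in OVX+RJ, with 5 of 6 negative, and that of 6 pericyte and smooth muscle markers 172 to 180 and 154 to 161 CPM, with 5 of 6 negative; no marker of either list was at 0. The sums of the lists for interneurons, astrocytes, oligodendrocytes, microglia, choroid plexus, red blood cells, striatum and thalamus overlapped between groups. For thalamus, with 5 of 6 markers positive, the overlap was marginal, at 127.124 to 133.415 CPM in OVX and 133.394 to 140.753 CPM in OVX+RJ. Choroid plexus markers, 7 of 7 positive, summed to 25.5 to 36.0 CPM in OVX and 26.7 to 54.4 CPM in OVX+RJ, with Otx2 at 0 in at least 1 library, and 10 of 10 dentate granule cell markers were negative, at 590 to 802 and 504 to 764 CPM. The part of these cell types in the levels of Fos and Junb was not tested.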

How the data were processed

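RNA was measured in 6 hippocampus libraries. The authors deposited a table of expected counts, with a row for each gene symbol and no scaling across libraries. Per the submitters' processing notes, the tools were HISAT2 2.2.1, StringTie 2.2.1, fastp 0.23.4 and bcl2fastq 2.19, with build GRCm39, and no roles are named. The annotation, the use of strand and the rule for multi-mapping reads were not given in the sources used here.

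Values, not whole at 51 features, were rounded. Genes were kept by filterByExpr and scaled by TMM in edgeR 4.0.16 (R 4.3.3), and groups compared by glmQLFit and glmQLFTest with Benjamini-Hochberg adjustment at 0.05. limma 3.58.1 gave standard errors of log2 CPM values (prior count 2), and DESeq2 1.42.0 was an alternative. The test was checked on simulated data. Printed CPM use library totals over all rows, without TMM factors. Gene lengths came from GENCODE M21 and promoters from RefSeq, both on GRCm38, matched by symbol for all 6 members. Protein sequences were not used here.

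The members and lists were chosen with earlier results of these data known. Named genes are the 6 members, the 4 tested genes of each list with the highest mean count, any gene called, and the 5 genes most like Fos and like Junb. Some genes that this rule names are not reported here. No exact test of 3 against 3 can give a two-sided p under 0.10. Alternatives were other scalings, filters, tools, a replicate block and leaving out each library.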

Additional observations from a re-analysis of the deposited data

How the results depend on the processing

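Over the 7 alternatives that kept all 6 libraries, the log2 fold change ran from 1.28 to 1.34 for Fos, 0.73 to 0.75 for Junb, 0.33 to 0.37 for Fosb, 0.12 to 0.13 for Fosl2, -0.044 to -0.030 for Jun and 0.053 to 0.070 for Jund, and the median of the 6 from 0.23 to 0.25. With each library left out the median ran from 0.18 to 0.37, and the number of members apart, each higher in OVX+RJ, from 2 to 3, with 0 lower throughout. Leaving out a library only removes values from a group, so groups already apart stay apart and this number could not fall below 2. Among all genes tested, 1722 to 2017 were apart and higher with 1 library left out, against 913 with all 6. Among all genes, DESeq2 called 10 higher and 2 lower, and robust empirical Bayes 2 higher and 1 lower (Zbtb16), against 0 and 0; the cause was not tested, and calls on the 6 members are not given, as they were chosen with this contrast known. With each library left out, 0 to 7 genes were called higher and 0 to 1 lower, most without OVX+RJ 2 (7 higher and 1 lower), and of the AP-1 pathway genes 0 to 1 higher (Rps6ka3, without OVX 3) and 0 lower. Ppia was called without OVX 2, Gm49450 without OVX 3 and Phc3 without OVX+RJ 1. The other scalings and filters called 0. The replicate block called 1 gene higher (Gm49510) and 0 lower. Deviations of same-numbered libraries correlated at 0.046, -0.0024 and 0.0031 across genes, so these data give no sign that the numbers pair the samples, and the labels do not say. Counting 50 bases after the start raised every motif share, for example TGACG from 17.8% to 20.8%. With these bases counted, TATAAA was in the windows of Fos and Junb, against Fos alone before the start. At the lowest Fos count of 205, counting error is 6.98%, and 3 libraries a group limit every comparison. For CPM per kb, the RefSeq span in place of GENCODE exons moved Jund from 45.8 to 26.6 in OVX and from 47.5 to 27.6 in OVX+RJ. Junb went from 19.9 to 19.6 in OVX and from 33.0 to 32.4 in OVX+RJ.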
